A study of Mus musculus with 9 samples.

Results

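Interferon-induced mRNAs varied widely among 9 mouse B cell lymphomas that carried the same driving oncogene, and the 3 lymphomas with the highest levels were compared here with the 3 with the lowest. The lymphomas were chosen by measured values. Each was given a score, the mean log2 intensity of Ifit1, Ifit3, Irf7, Usp18 and Rtp4 on its array, with each gene read from its probe set with the highest mean. The comparison took 6 of the 9 lymphomas, 3 called interferon-high and 3 called interferon-low, and the other 3 are called middle. All 9 came from mice with Eμ-Myc, a transgene in which the immunoglobulin heavy chain enhancer drives Myc in B cells. In 4 of them this was the only transgene, and the other 5 (double-transgenic here) also carried Eµ-TTP-1, which by its name puts TTP, the mRNA decay factor encoded by Zfp36, under the same enhancer. The strain background was 94% C57BL/6 in both genotypes, and the animals' ages were not given. RNA of each lymphoma was hybridised to 1 Affymetrix mouse array, the labels call the samples biological replicates, and the study set out to compare the genotypes. The labels do not state whether each sample came from a separate mouse, so p-values measure the spread between these samples.

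Interferons are secreted proteins that bind cell surface receptors and, through the kinases Jak1, Jak2 and Tyk2 and transcription factors such as Stat2 and Irf9, switch on a shared set of antiviral genes. Type I interferons (alpha and beta) act through Ifnar1 and Ifnar2, and interferon gamma, made mainly by T and natural killer cells, acts through Ifngr1 and Ifngr2. The targets include proteins that block viral RNA, GTPases that attack intracellular pathogens, antigen presentation genes and chemokines that recruit T cells.

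The interferon-high lymphomas were Eμ-Myc replicate 4, with a score of 8.90, double-transgenic replicate 1, with 7.92, and double-transgenic replicate 5, with 6.20. The middle scores were 5.20 in Eμ-Myc replicate 2, 4.62 in double-transgenic replicate 4 and 4.23 in double-transgenic replicate 3. The interferon-low lymphomas were double-transgenic replicate 2 (4.20), Eμ-Myc replicate 3 (4.13) and Eμ-Myc replicate 1 (3.01). The high group was set apart from the next lymphoma by 0.999 log2 units, whereas double-transgenic replicates 3 and 2, on either side of the lower boundary, differed by 0.028. Below, values are log2 intensities and are given in this order of falling score. Both genotypes occurred in both groups, and the mean score was 5.31 ± 2.55 for Eμ-Myc (SD, n = 4) against 5.43 ± 1.61 for the double-transgenic genotype (SD, n = 5), a difference of 0.13 that was smaller than either spread.

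Among the score genes, Ifit1, which binds foreign RNA at its 5′ end, read 8.11, 4.82 and 3.11 in the high lymphomas, 2.18, 2.63 and 1.93 in the middle ones and 2.12, 1.90 and 1.89 in the low ones. Ifit3, its partner protein, read 8.79, 7.90 and 5.85, then 4.90, 4.79 and 3.95, then 3.73, 3.87 and 3.88. Irf7, the transcription factor that amplifies interferon alpha production, read 7.94, 8.54 and 5.72, then 4.95, 4.28 and 3.85, then 3.71, 3.92 and 3.84. These 3 genes varied widely within the high group and little in the low group, where Ifit1, which did not pass the filter on low values, lay near the lowest intensities of the array. Usp18, which removes ISG15 from proteins and damps receptor signalling, read 8.64, 7.88 and 7.07, then 6.04, 3.95 and 5.30, then 4.07, 4.52 and 2.47. Rtp4, a receptor transport protein with antiviral activity, read 11.00, 10.45 and 9.24, then 7.93, 7.44 and 6.13, then 7.38, 6.44 and 2.95. Eμ-Myc replicate 1 was thus the lowest lymphoma mainly through Usp18 and Rtp4. Because these genes formed the groups, their differences are a description with no test.

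**Figure D1:**
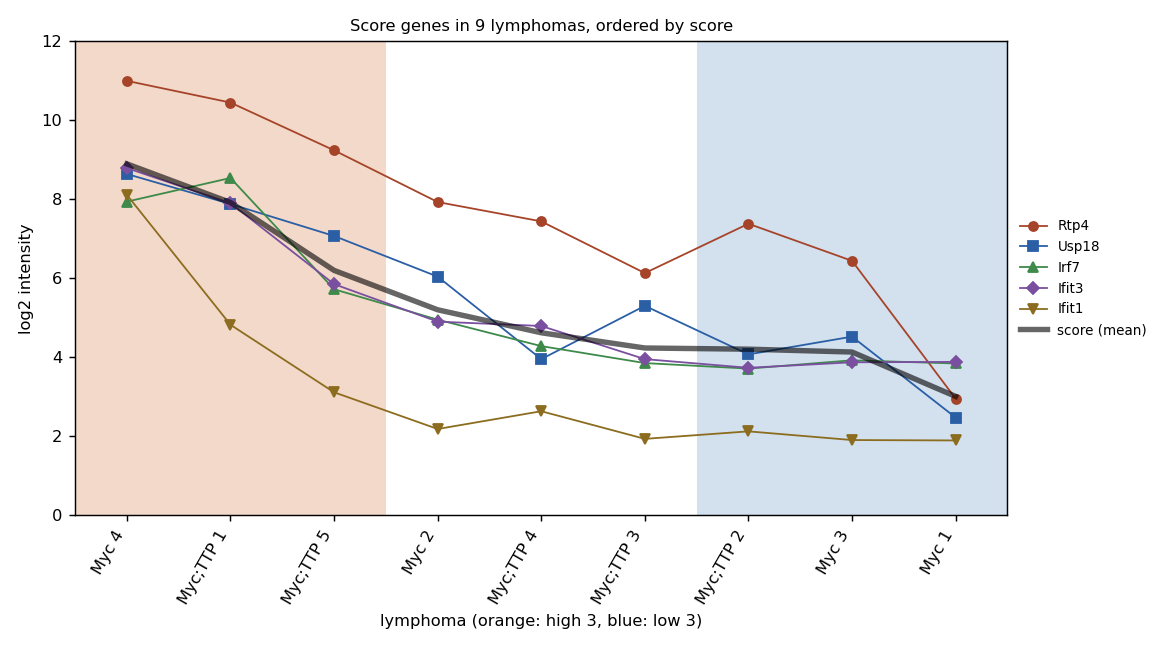
Log2 intensity of the 5 score genes (coloured lines) and their mean, the score (black), in each of 9 lymphomas ordered by falling score; Myc marks Eμ-Myc and Myc;TTP marks double-transgenic lymphomas, followed by the replicate number, with 1 array per point. The score runs from 8.90 to 3.01, and all 5 genes are higher in each of the 3 high lymphomas (orange) than in any of the 3 low lymphomas (blue).

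Interferon-induced genes are typically switched on through a promoter element with 2 GAAA blocks, bound by a complex that contains Stat2 and Irf9. The promoters of several members are shown because they place this motif beside genes that differed between the groups. Windows from 250 bases before to 50 after the start, taken from RefSeq (GRCm38.p6) and matched by symbol, were searched on both strands for GAAANNGAAA, with overlapping matches counted separately. Capitals mark the matches, all of which lay on the strand opposite to the one printed. The windows are Ifit1 (chr19:34640639-34640938, plus strand), Ifit3 (chr19:34583279-34583578, plus strand), Rsad2 (chr12:26456403-26456702, minus strand) and Irf7 (chr7:141266375-141266674, minus strand).
Ifit1: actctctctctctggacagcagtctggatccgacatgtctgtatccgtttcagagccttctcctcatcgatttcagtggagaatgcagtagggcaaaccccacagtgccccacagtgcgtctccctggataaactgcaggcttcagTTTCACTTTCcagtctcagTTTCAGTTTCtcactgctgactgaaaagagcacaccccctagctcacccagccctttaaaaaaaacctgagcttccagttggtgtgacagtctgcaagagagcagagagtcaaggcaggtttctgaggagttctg
Ifit3: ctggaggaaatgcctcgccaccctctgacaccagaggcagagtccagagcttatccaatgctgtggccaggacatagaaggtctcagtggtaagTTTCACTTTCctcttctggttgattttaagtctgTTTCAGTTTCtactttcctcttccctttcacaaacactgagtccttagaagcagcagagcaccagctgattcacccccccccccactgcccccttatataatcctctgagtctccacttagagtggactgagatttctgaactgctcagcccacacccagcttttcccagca
Rsad2: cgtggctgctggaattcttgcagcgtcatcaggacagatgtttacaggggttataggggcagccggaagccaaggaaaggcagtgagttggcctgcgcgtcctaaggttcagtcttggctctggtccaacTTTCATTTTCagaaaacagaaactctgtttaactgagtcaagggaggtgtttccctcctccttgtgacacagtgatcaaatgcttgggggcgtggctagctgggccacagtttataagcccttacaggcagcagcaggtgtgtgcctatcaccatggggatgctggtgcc
Irf7: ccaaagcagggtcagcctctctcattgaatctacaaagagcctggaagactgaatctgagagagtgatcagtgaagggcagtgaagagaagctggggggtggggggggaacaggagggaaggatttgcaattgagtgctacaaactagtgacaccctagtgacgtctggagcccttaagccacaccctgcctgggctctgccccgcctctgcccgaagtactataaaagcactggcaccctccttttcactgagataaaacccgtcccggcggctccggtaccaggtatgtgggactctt

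The Ifit1 window held 2 matches, which began 104 and 85 bases before the start as printed, and the Ifit3 window held 2, at 156 and 122 bases. Rsad2, the antiviral enzyme viperin, held 1, at 120 bases, and these letters were not in the Irf7 window. They were also not in the windows of Oasl2 and Rnf213, the other antiviral effectors chosen for the size of their difference. The motif was present in 1131 of all 32851 windows, or 3.44%, and in at least 1 window of 3.99% of the 27025 genes with one. Of the antiviral effector genes with a window it was present in 17 of 50 (34.0%), and of the interferon gamma induced GTPase genes in 6 of 7. Of these 6, Irgm1, Irgm2 and Igtp differed between the groups by 0.85, 1.29 and 1.60, and Gbp2, Gbp3 and Gbp7 by 0.11, -0.86 and -0.13. The motif was present in 4 of 15 nucleic acid sensor and adaptor genes and in 3 of 14 class I presentation genes. Of the chemokine genes, which had the largest differences of the interferon lists, 1 of 6 held it. Among those 50 effectors it was present in 8 of the 16 whose high values lay wholly above the low ones, genes under the filter included, and in 9 of the other 34. These shares are descriptions, and a match is not shown to be a bound site.

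Across the genome the high and low lymphomas differed in single genes by large amounts, but no gene passed the test after adjustment. Of 10168 genes tested without the score genes (limma, Benjamini-Hochberg adjustment), 0 were called at an adjusted p under 0.05, a share of 0%, and the lowest adjusted p was 0.738. The unadjusted p lay under 0.05 for 515 genes (5.06%), beside an expectation of 508.4 if no gene differed. All 3 high values lay above all 3 low values for 659 genes (6.48%), and all 3 low values lay above all 3 high values for 329 genes (3.24%). The differences were higher for 5750 genes and lower for 4418, with a median of 0.053. On simulated arrays of this design the test called 17 of 50 genes that differed by 1 log2 unit. It called 33 of 50 at 2 units and 45 of 50 at 4 units. Whether these rates hold for the lymphoma arrays was not tested. There, Slc43a1, Cxcl9 and D930003E18Rik differed by -4.75, 5.12 and -5.62 and were not called. Precision is limited throughout by having 3 arrays a group, and in whole tumours fewer cells of a type and less RNA per cell cannot be told apart.

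The genes for interferons themselves were at the lowest intensities of the array in high and low lymphomas alike. Of 20 listed interferon and interferon-inducing cytokine genes 14 were on the array and 2 passed the filter. Ifnb1, the gene for interferon beta, read 2.26 to 2.35 in all 9 lymphomas, and Ifng, the gene for interferon gamma, read 2.34 to 2.53. Ifna1, Ifna2, Ifna4, Ifna5, Ifna9, Ifna11 and Ifnab, of the interferon alpha family, had differences of 0.00 to 0.03. Ifnz, a related gene, read 6.13 in double-transgenic replicate 2, an interferon-low lymphoma, and 1.90 to 2.91 in the others. The transcripts of these ligands were therefore not detectable above the array's lowest level in the high lymphomas.

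Of the cytokines that induce interferon gamma, Il18 was similar in the groups (difference 0.22), and Il12b read 2.62 to 2.76 throughout. Il12a, which encodes a subunit of interleukin 12, read 3.48, 8.56 and 7.67 in the high lymphomas, 3.24, 6.86 and 9.86 in the middle ones and 9.25, 8.93 and 10.77 in the low ones. It was lower in every high lymphoma than in any low one, although 2 of the high values were themselves far above the lowest. Il15, which sustains natural killer cells, did not pass the filter and had a difference of 0.88 with overlapping groups.

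The receptor and kinase genes were mostly lower in the high lymphomas, but not in step with the score. Of 15 tested genes for interferon receptors, Janus kinases, STAT factors and Irf9, 13 were lower in the high lymphomas and 2 higher. Their median difference was -0.633 against 0.053 over all genes tested. Each lymphoma's median deviation of these genes from their mean was -0.045, -0.257 and -0.419 in the high lymphomas. It was -0.112, 0.08 and -0.169 in the middle and 0.509, -0.017 and -0.051 in the low ones. Eμ-Myc replicate 4, with the highest score, was thus level with Eμ-Myc replicates 3 and 1, with the lowest. Ifnar1, a chain of the type I receptor, read 8.09, 7.85 and 7.87 in the high lymphomas, 7.41, 8.28 and 8.11 in the middle ones and 8.43, 8.20 and 10.32 in the low ones, a difference of -1.05. The groups did not overlap, but the size of the difference came mostly from Eμ-Myc replicate 1, and a second Ifnar1 probe set differed by -1.43. Ifnar2, the other chain, differed by -0.63, Ifngr2 by -0.97, Il10rb, a subunit of the interleukin 10 receptor, by -0.81, and Ifngr1 by -0.15, with overlapping groups for all of these. Ifnlr1, the receptor chain for interferon lambda, did not pass the filter.

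Ifnar1, Ifnar2, Ifngr2 and Il10rb lie side by side on chromosome 16, and their values moved with the genes around them. In Eμ-Myc replicate 1, the lymphoma with the lowest score, these receptors read 10.32, 11.15, 11.32 and 11.14, the highest of the 9 lymphomas for each. The 25 tested genes listed around the cluster had a median of 2.25 log2 units above their own median in that lymphoma, and 24 of the 25 were highest there. Their median deviation in the other low lymphomas was -0.22 and -0.18, and in the high lymphomas 0.49, -0.10 and -0.04. The lymphoma with the highest level of these 4 receptor mRNAs was therefore the one with the lowest score. Without Eμ-Myc replicate 1 the neighbours' median difference turned from -0.494 to 0.315, and that of the receptor and kinase list went from -0.633 to -0.381. Over the 342 tested genes of chromosome 16 the median deviation was 0.50 in Eμ-Myc replicate 4 and between -0.10 and 0.00 elsewhere, and Rtp4, a score gene, also lies on that chromosome. The part of chromosome-wide levels in the score was not tested.

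Of the signalling genes downstream, Stat4, the factor that responds to interleukin 12 and type I interferon, read 5.74, 6.55 and 4.35 in the high lymphomas and 8.40, 9.23 and 8.69 in the low ones, a difference of -3.22 with no overlap. The middle lymphomas spanned both, at 2.71, 8.57 and 7.81. Jak1 differed by -1.02, Jak2 by -0.97, Stat5a by -0.71, Stat3 by -0.44, Stat2 by -0.44, Stat5b by -0.21 and Stat6 by -0.13, and the groups overlapped for each. A second, weaker Jak2 probe set differed by -1.17 without overlap. Tyk2 differed by 0.59 with overlap, with 11.11 in double-transgenic replicate 1 and 8.93 to 9.33 elsewhere. Irf9, the DNA-binding partner of Stat2 and itself interferon-induced, was the only gene of this list with higher values in every high lymphoma, at 9.28, 9.22 and 8.84 against 8.39, 7.97 and 8.61 in the middle and 8.61, 8.49 and 8.57 in the low lymphomas. Its difference of 0.56 was small beside those of the score genes.

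The interferon regulatory factors other than Irf7 and Irf9 had small differences or overlapping groups. Irf3, the factor that starts interferon beta transcription, read 10.49 to 10.76 in all 9 lymphomas and differed by -0.01, while a second, weaker probe set differed by 0.32 without overlap. Irf1, which is induced by interferon gamma, differed by -0.14, Irf2, a repressor, by 0.01 and Irf5 by 0.01. Irf8 and Irf4, which also act in B cell development, differed by 0.47 and 0.81 with overlapping groups. Of the 6 tested factors 4 were higher and 2 lower, with a median of 0.011, below that of all genes tested.

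The genes that encode antiviral effectors were mostly higher in the high lymphomas. Of 52 tested, 40 were higher and 12 lower, with a median difference of 0.492 against 0.053 over all genes tested. The high values lay wholly above the low values for 17 of the 52 and wholly below for 1, beside 6.48% and 3.24% of all genes. In 9 of the 52, or 17.31%, all 3 high lymphomas also exceeded all 6 others, which held for 1.16% of all genes tested. None was called after adjustment, and since the score genes belong to the same response, these counts are a description and not independent evidence.

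Bst2, tetherin, which holds budding viruses at the cell surface, read 11.22, 10.79 and 10.88 in the high lymphomas, 10.14, 9.70 and 9.46 in the middle ones and 9.43, 9.64 and 9.41 in the low ones. Its high lymphomas stood above all 6 others by more than the spread within either group (10.96 ± 0.22 against 9.49 ± 0.13, SD, n = 3 each), a difference of 1.47. Eif2ak2, the RNA-activated kinase PKR that halts translation, read 8.93, 9.24 and 9.13, then 8.30, 8.17 and 8.92, and at most 8.12 in the low lymphomas. Its 3 probe sets all separated the groups, with differences of 1.05, 0.65 and 0.55. Ifi27l2a, a small interferon-induced membrane protein, read 13.44, 12.87 and 12.01, then 11.64, 10.09 and 11.74, and 8.93 to 10.75 in the low lymphomas, the largest difference among tested effectors at 2.88. Rsad2 read 10.17, 9.07 and 7.67, then 7.81, 7.72 and 5.70, then 6.93, 5.73 and 5.88. Its lowest high lymphoma, double-transgenic replicate 5, lay below 2 of the middle lymphomas.

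Oas2, which makes the messenger that activates RNase L, differed by 2.60 and Rnf213, a large ubiquitin ligase, by 2.43, both without overlap. Rnf213 was even within the high group, at 10.88, 11.28 and 10.74, and spread in the low group, at 7.47, 10.03 and 8.10. Oasl2 and Mx1, an antiviral GTPase, did not pass the filter on low values. Mx1 read 8.07, 5.71 and 3.86 in the high lymphomas, 4.09, 3.20 and 3.15 in the middle and 2.52, 2.43 and 2.34 in the low ones, following the order of the score closely. Oasl2 read 7.69, 6.12 and 6.40, then 3.66, 3.62 and 3.35, then 3.53, 3.49 and 2.64, a step between the high group and the rest. Of the 9 effectors that did not pass, 3 had non-overlapping groups in the same direction. The share of all genes under the filter that did so was not counted, so these 3 are no added evidence.

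The other side of this list held genes that interferon is also known to induce. Slfn2, a regulator of lymphocyte quiescence, differed by -1.37, Epsti1 by -1.21 and Ifitm1, a membrane protein that blocks viral entry, by -0.80, each with overlapping groups. A weaker Epsti1 probe set differed by -1.61 without overlap. Ifitm1 was highest, at 12.80, in double-transgenic replicate 2 of the low group and next highest, at 11.18, in Eμ-Myc replicate 4. Ly6e, a membrane protein also expressed by immature lymphocytes, was the effector with lower values in every high lymphoma, at 14.02, 14.39 and 14.36 against 15.26, 14.48 and 14.66, a difference of -0.54.

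**Figure D2:**
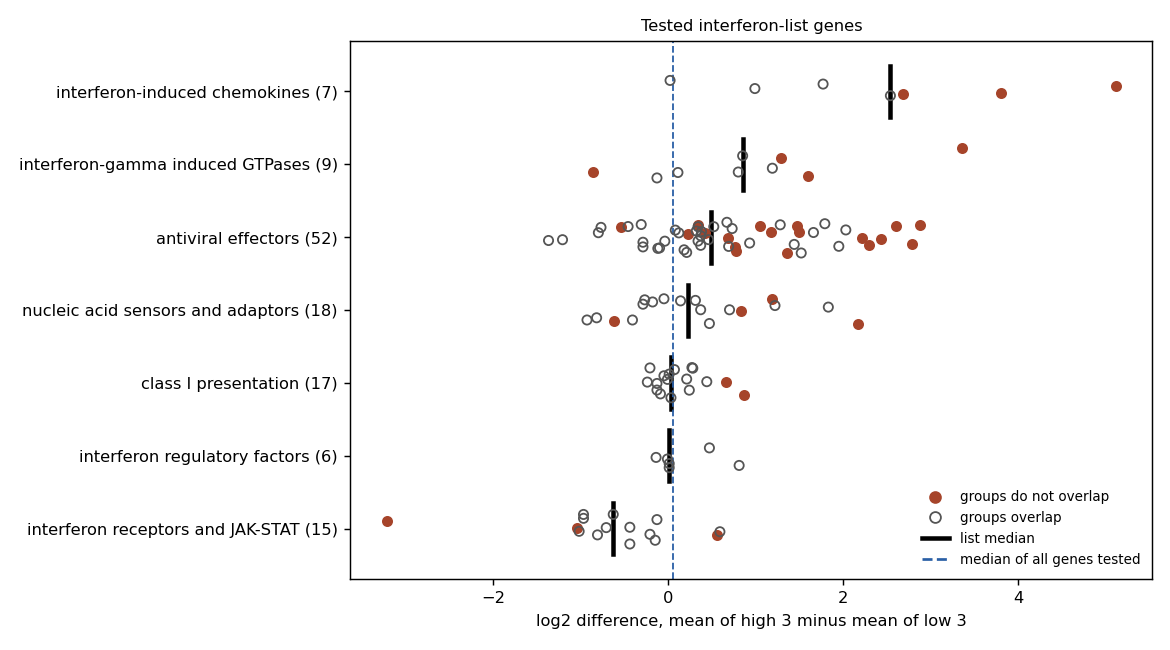
Log2 difference, mean of the 3 high minus mean of the 3 low lymphomas, for each tested gene (point) of 7 interferon lists, with the number of tested genes in brackets; filled points have high and low values that do not overlap, thick bars are list medians and the dashed line is the median of all 10168 genes, 0.053. Chemokines have a median of 2.538 and receptors and kinases one of -0.633.

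The chemokines that interferon induces showed the largest differences of any interferon list. All 7 tested were higher in the high lymphomas, with a median of 2.538, and 3 did not overlap, beside 6.48% of all genes. Cxcl9, which attracts T cells through the receptor Cxcr3 and is chiefly induced by interferon gamma, read 10.86, 7.49 and 6.18 in the high lymphomas, 4.40, 4.43 and 4.66 in the middle ones and 3.17, 3.41 and 2.60 in the low ones. Its difference was 5.12 (8.18 ± 2.42 against 3.06 ± 0.42, SD, n = 3 each), and 3.77 without Eμ-Myc replicate 4. All 3 low values lay under the filter's log2 level of 4, where values are poorly determined, and the difference was 3.70 with 16 added to each intensity. Cxcl10, a second ligand of Cxcr3, read 10.58, 9.50 and 8.59, then 6.89, 6.60 and 6.83, then 6.54, 7.33 and 6.75. Both genes were higher in each high lymphoma than in any of the 6 others, and Cxcl10 was flat across those 6.

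Ccl5, made by T cells, natural killer cells and virus-sensing cells, read 9.78, 9.13 and 7.42, then 8.08, 7.80 and 7.80, then 3.68, 6.39 and 4.83. Here the low lymphomas were set apart and the middle ones lay among the high ones. Cxcl13, the follicular B cell attractant, differed by 2.54 but ranged from 3.08 to 13.48 within the low group. Ccl12 differed by 1.77, Ccl2 by 0.99 and Ccl8, which attract monocytes, by 0.02, all with overlap. Cxcl11 did not pass the filter and read 3.13 to 3.45 in all lymphomas.

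The GTPases that interferon gamma induces were mostly higher in the high lymphomas. Of 9 tested, 7 were higher and 2 lower, with a median of 0.853. The high values lay wholly above the low ones for 3 and wholly below for 1, beside 6.48% and 3.24% of all genes. The immunity-related GTPase Iigp1, which destroys the vacuoles of intracellular parasites, read 10.95, 8.54 and 8.28, then 7.05, 7.02 and 7.15, then 5.67, 6.72 and 5.29. It was higher in every high lymphoma than in all others, its difference was 3.36, and its second probe set gave 3.33. Igtp differed by 1.60 and Irgm2 by 1.29 without overlap, and Irgm1 by 0.85 and Ifi47 by 1.19 with overlap. Of the guanylate-binding proteins, Gbp8 differed by 0.80, Gbp2 by 0.11 and Gbp7 by -0.13. Gbp3 was lower in every high lymphoma, at 9.48, 9.47 and 9.15 against 10.28, 9.91 and 10.50, a difference of -0.86. Without Eμ-Myc replicate 4, which had the highest Iigp1, Irgm2 and Igtp, the list's median was 0.653.

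Genes for antigen presentation on MHC class I differed little. Of 17 tested, 10 were higher and 7 lower, with a median of 0.029, slightly below that of all genes. The high values lay wholly above the low ones for 2 of the 17, beside 6.48% of all genes. Both encode subunits of the immunoproteasome, which cuts peptides for presentation. Psmb8 read 13.13, 13.02 and 13.00 in the high lymphomas, 12.33, 12.34 and 12.60 in the middle ones and 12.65, 12.65 and 11.88 in the low ones, a difference of 0.66. Psmb9 read 12.43, 12.28 and 12.07, then 11.61, 11.51 and 11.58, then 11.93, 11.56 and 10.72, a difference of 0.86. Psmb8 and Psmb9 were the only members that were higher in all 3 high lymphomas than in the 6 others. They were 11.76% of the list, beside 1.16% of all genes tested. The class I heavy chains H2-K1 and H2-D1 both differed by -0.13 in their brightest probe sets, while a dimmer H2-D1 probe set of the type that can match several related genes differed by 1.18 without overlap. B2m, their light chain, differed by -0.05 and Tap1, the peptide transporter, by 0.44, with overlap.

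MHC class II genes, which B cells express without interferon, had no gene whose groups were apart. Of all genes, 6.48% were apart with higher and 3.24% with lower values. Of 12 tested, 10 were higher in the high lymphomas, with a median of 0.685, and H2-Eb1 had the largest difference, 1.49. The median was -0.242 without double-transgenic replicate 2, in which Ciita, the class II transactivator, read 4.41 against 6.02 to 10.28 in the others.

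The sensors that detect viral nucleic acid were mixed. Of 18 tested, 10 were higher and 8 lower, with a median of 0.222. The high values lay wholly above the low ones for 3 and wholly below for 1, beside 6.48% and 3.24% of all genes. Ifih1, the sensor MDA5 for long double-stranded RNA, read 8.10, 7.69 and 7.51 in the high lymphomas, 6.43, 5.72 and 5.53 in the middle ones and 5.94, 6.54 and 4.32 in the low ones, a difference of 2.17. It was the only sensor gene tested in which the 3 high lymphomas exceeded all others, or 5.56% of the list beside 1.16% of all genes tested. Ddx58, the sensor RIG-I, differed by 0.83 and Tlr3, an endosomal receptor for double-stranded RNA, by 1.19, both without overlap between high and low. Cgas, the DNA sensor, differed by 1.83 with overlap. The adaptors downstream did not share this order. Mavs, used by Ifih1 and Ddx58, differed by -0.05, Sting1, used by Cgas, by -0.82, and Unc93b1, which carries Toll-like receptors to endosomes, by -0.62, the last without overlap. Zbp1 and Ifi204, nucleic acid sensors that did not pass the filter, also separated the groups, with differences of 2.27 and 1.50.

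Genes that restrain interferon signalling other than Usp18 were close to the background of all genes. Of 16 tested, 11 were higher and 5 lower, with a median of 0.078 that lay between -0.052 and 0.058 when single high or low lymphomas were left out. Socs3, an inhibitor of Janus kinases, differed by 0.15 and ranged from 6.32 to 9.52 in the high group. Rnf125, a ubiquitin ligase, differed by -1.16 and Tnfaip3, an inhibitor of NF-kB, by -1.10, with overlap. Socs1, another inhibitor of Janus kinases, and Cish did not pass the filter. Socs1 read 1.69, 1.70 and 1.68 in the high, 1.67, 3.94 and 1.70 in the middle and 3.53, 1.70 and 2.78 in the low lymphomas, a difference of -0.98 among values near the lowest of the array.

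Genes that keep the cell's own nucleic acids from triggering interferon had a median of 0.264, with 16 of 22 higher and 6 lower, and one of 0.15 with the mean of each gene's probe sets. The groups did not overlap for 4 of them, beside 6.48% of all genes. Hells, a chromatin remodeller that supports DNA methylation, differed by 0.70, Skiv2l, an RNA exosome helicase, by 0.43, Pnpt1, which degrades mitochondrial RNA, by 0.37 and Ehmt2, a histone methyltransferase, by 0.36. None of the 22 was lower in the high lymphomas without overlap, a count not far from the share of all genes, 3.24%.

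Some genes outside the interferon lists also had values that separated the groups, though none passed the adjusted test. The 12 genes with the smallest p and higher values were Bst2, Cxcl10, Def8, Cxcl9, Eif2ak2, Ccl5, Il33, Iigp1, Chtf18, Klrd1, H1f10 and Ifi27l2a, of which 7 belong to interferon lists. Since the groups were made from interferon-induced genes, that count is a description and not independent evidence. The share of interferon-list genes among all genes tested was not counted. Def8, a lysosome-associated protein, read 8.49, 8.48 and 8.34 in the high lymphomas, 7.86, 7.71 and 7.50 in the middle ones and 7.48, 7.75 and 7.53 in the low ones. Its difference was 0.85 ± 0.15 (SE, limma adjusted p = 0.865), small but larger than the spread in either group. Il33, an alarmin cytokine of stromal cells, read 9.98, 10.03 and 7.90, then 8.04, 7.90 and 8.30, then 7.04, 5.83 and 6.56, a difference of 2.83. Chtf18, which loads the replication clamp, differed by 1.10 and H1f10, a linker histone, by 2.43.

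The gene with the smallest p of all was lower in the high lymphomas. Il10ra, the ligand-binding chain of the receptor for the anti-inflammatory interleukin 10, read 6.25, 6.37 and 7.28 in the high lymphomas, 8.70, 8.65 and 8.48 in the middle ones and 8.78, 8.59 and 8.72 in the low ones. The 6 other lymphomas lay within 0.30 of each other and all high lymphomas lay below them. The difference was -2.06 ± 0.27 (SE, 95% interval -2.69 to -1.44), with an unadjusted limma p of 7.3e-05 and an adjusted p of 0.738. Its other probe sets lay near the lowest intensities of the array and showed no difference. Dock10, an activator of small GTPases in lymphocytes, read 9.98, 8.90 and 9.58, then 10.82, 12.19 and 11.40, then 13.35, 12.45 and 11.72. Its difference was -3.02 ± 0.51 (SE, limma adjusted p = 0.865), a second probe set gave -3.42, and the middle lymphomas lay between the groups apart from an overlap with the low ones.

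Slc43a1, an amino acid transporter, and D930003E18Rik were near the lowest intensities in every high lymphoma and well above them in every low one. Slc43a1 read 3.77, 3.79 and 3.77 in the high lymphomas and 9.37, 7.15 and 9.08 in the low ones, and in the middle group 3.77, 7.59 and 6.56. D930003E18Rik read 2.62, 2.07 and 2.14 against 8.95, 6.98 and 7.76, with 2.08, 6.64 and 5.65 in the middle group. In both genes Eμ-Myc replicate 2, the middle lymphoma nearest to the high group, had the level of the high lymphomas. The remaining genes lower in every high lymphoma and named by smallest p were 2210408K08Rik, Ripor2, Pamr1, Adgrl2, Sec11c, Dok3, P2ry10 and Phf21a, with differences from -3.68 for Adgrl2, an adhesion receptor, to -0.65 for Sec11c, a signal peptidase subunit. P2ry10, a lysophospholipid receptor of lymphocytes, differed by -3.45.

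**Figure D3:**
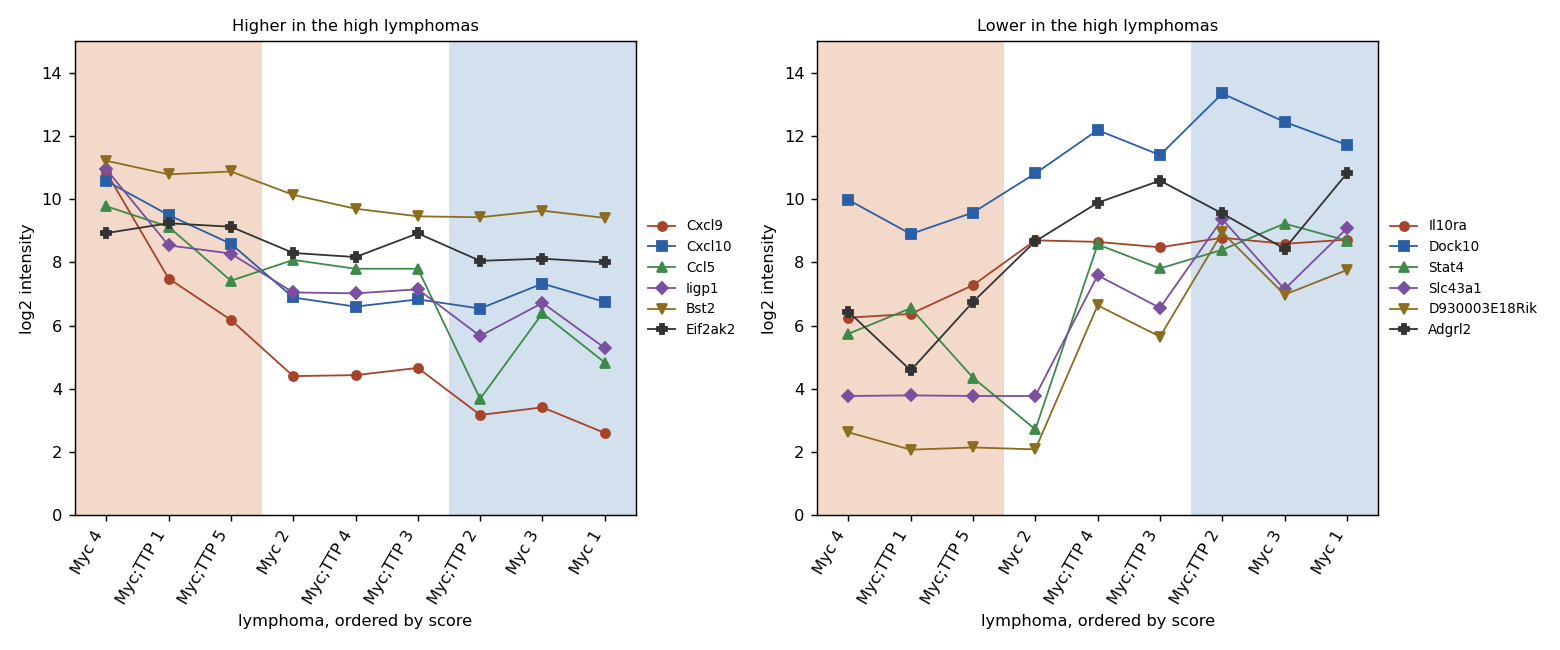
Log2 intensity in 9 lymphomas ordered by falling score (Myc, Eμ-Myc; Myc;TTP, double-transgenic; orange, high; blue, low; 1 array per point). Left, 6 genes with higher values in every high than in any low lymphoma; right, 6 genes with lower values, among which Il10ra is 6.25 to 7.28 in the high lymphomas and 8.48 to 8.78 in the 6 others.

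Markers of other immune cells were measured beside these values, because interferon gamma comes from T and natural killer cells. Of 23 listed T and natural killer cell genes on the array, 8 passed the filter; 7 of these were higher and 1 lower in the high lymphomas, with a median of 1.421, or 0.72 with the mean of each gene's probe sets. The high values lay wholly above the low ones for 2 of these 8, beside 6.48% of all genes. The mean level of all 23 on the array was 4.03 to 4.79 in the high, 3.49 to 4.02 in the middle and 3.04 to 3.86 in the low lymphomas. Klrd1, a natural killer cell receptor chain, read 8.19, 6.52 and 7.11, then 4.90, 5.91 and 6.58, then 3.07, 5.04 and 4.25, a difference of 3.15 ± 0.66 (SE, limma adjusted p = 0.865). Cd3d, a chain of the T cell receptor complex, read 8.02, 4.68 and 5.51, then 4.01, 4.32 and 5.64, then 3.37, 2.86 and 3.70, and was highest in the lymphoma with the highest score. Cd3g was above 6 in Eμ-Myc replicate 4 alone, at 6.38, and read 3.03 and 3.00 in the other high lymphomas. Cd2, the tested gene that was lower, differed by -0.61 and Cd8a by 0.24, with overlap. Under the filter, Cd6 differed by -1.46, Prf1 by -1.1, Cd3e by 0.23 and Nkg7 by 1.27, also with overlap. Ncr1 and Tbx21, defining genes of natural killer and type 1 helper cells, read 2.06 to 2.21 in all 9 lymphomas. The part of T and natural killer cells in the differences of Cxcl9, Cxcl10 and Ccl5 was not tested.

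Macrophage and monocyte genes did not follow the split as a list. Of 20 tested, 15 were higher, with a median of 0.313, and none was higher without overlap, beside 6.48% of all genes. The mean level of all 23 on the array was 8.32 to 9.28 in the high and 8.21 to 9.46 in the low lymphomas. The median difference was 0.005 without Eμ-Myc replicate 1 and 0.688 without Eμ-Myc replicate 3. Cd163, a scavenger receptor of tissue macrophages, was lower in every high lymphoma, at 4.84, 3.29 and 3.25 against 7.74, 6.00 and 6.60, a difference of -2.99 ± 0.80 (SE, limma adjusted p = 0.865). Siglech, which marks plasmacytoid dendritic cells, the main producers of interferon alpha, read 1.84 to 1.92 in all lymphomas. Of their other markers, Ccr9 differed by -0.97 and Pacsin1, under the filter, by -0.21, with overlap. Klk1 differed by 0.26 with overlap in its brightest probe set. Its dimmer probe sets, under the filter, differed by 3.36, 3.46 and 0.75 without overlap. Of 9 tested dendritic cell genes 7 were higher and 2 lower, with a median of 0.506. For 1 of them the high values lay wholly above the low ones, beside 6.48% of all genes. Granulocyte genes were lower for 9 of 9 tested, with a median of -2.756, but all 9 had overlapping groups. That median was -1.551 without double-transgenic replicate 2 and -4.259 without Eμ-Myc replicate 1. S100a8, a neutrophil granule protein, read 11.80, 7.91 and 7.40 in the high lymphomas and 13.35, 13.24 and 8.79 in the low ones, so that each group held lymphomas with much and with little of it.

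**Figure D4:**
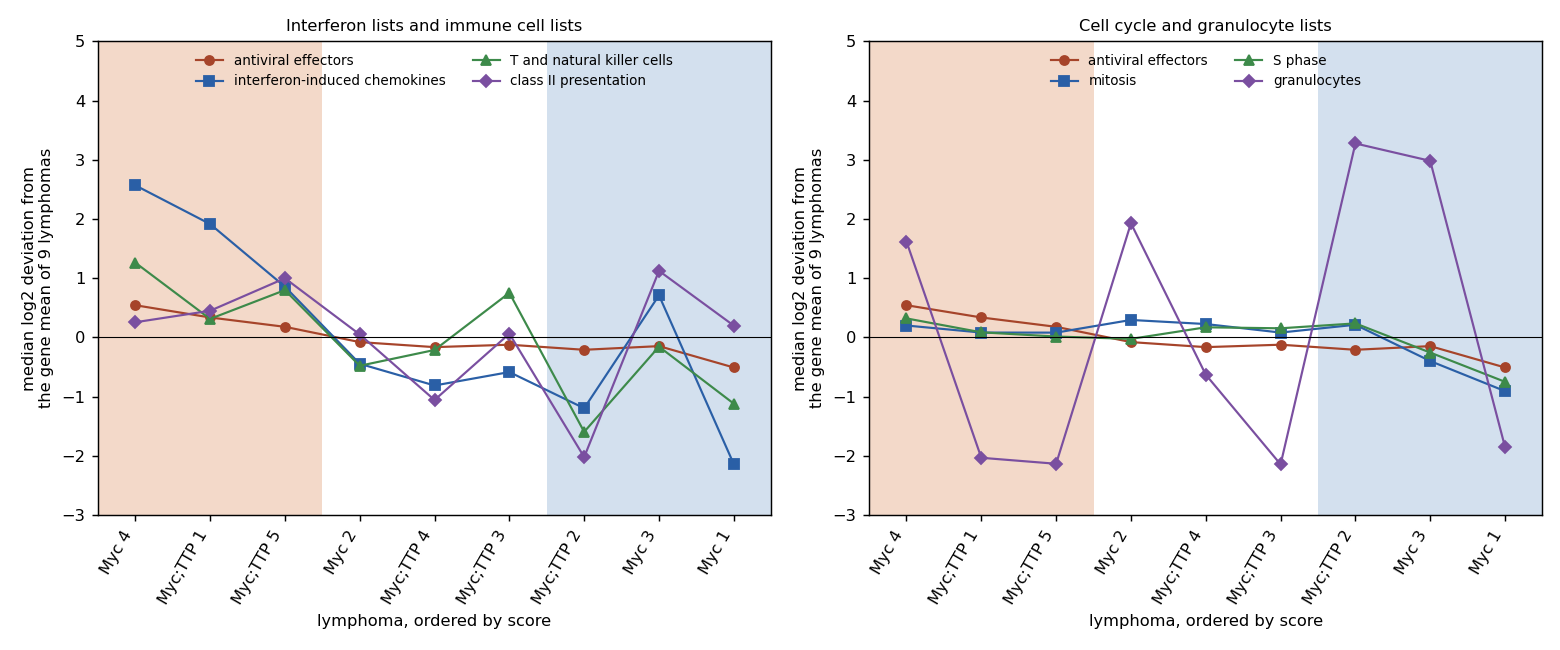
Median over the tested genes of a list of each lymphoma's log2 deviation from the gene's mean of 9 lymphomas, in order of falling score (Myc, Eμ-Myc; Myc;TTP, double-transgenic; orange, high; blue, low). Chemokine genes are highest in the 3 high lymphomas (2.57, 1.92 and 0.86), granulocyte genes are high in Eμ-Myc replicates 4, 2 and 3 and double-transgenic replicate 2 (1.62, 1.93, 2.98 and 3.28) and below their mean in the 5 others, and mitosis genes are lowest in Eμ-Myc replicates 3 and 1 (-0.40 and -0.91).

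Cell cycle genes were lowest in Eμ-Myc replicates 3 and 1 of the low group, and the remaining low lymphoma was not set apart from the high ones. Each lymphoma's median deviation of mitosis genes from their mean was 0.201, 0.082 and 0.081 in the high lymphomas, 0.295, 0.226 and 0.082 in the middle ones and 0.214, -0.399 and -0.907 in the low ones. The third low lymphoma, double-transgenic replicate 2, thus lay above all 3 high ones. Of 24 tested mitosis genes 24 were higher on average in the high group, against 56.5% of all genes tested, by 0.31 to 0.89 with a median of 0.525. The groups did not overlap for 9 of them, beside 6.48% of all genes. Cenpe, a kinetochore motor, read 11.04, 11.64 and 11.88 in the high lymphomas, 10.93, 10.99 and 11.02 in the middle ones and 10.83, 10.73 and 10.32 in the low ones, a difference of 0.89 ± 0.24 (SE, limma adjusted p = 0.865). Plk1, a mitotic kinase, differed by 0.79 and Aurkb, another, by 0.70. Of 24 S phase genes 22 were higher, with a median of 0.433. Without Eμ-Myc replicate 1, the lymphoma with the lowest score and the highest receptor levels, the median was 0.221 for mitosis and 0.168 for S phase, and without double-transgenic replicate 2 it was 0.793 and 0.687. The part of cell cycle activity in the interferon score was not tested.

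Genes of B cell identity and of the transgenes had small differences, with a few exceptions. Cd79a, a signalling chain of the B cell receptor, read 13.24 to 14.06 in all 9 lymphomas. B lineage genes were divided, with 9 higher and 9 lower and a median of 0.075 that was -0.071 without Eμ-Myc replicate 3. The high values lay wholly above the low ones for 3 of these 18, beside 6.48% of all genes. Cr2 differed by 3.4 and Cd22 by 1.96, with overlapping groups. Ms4a1, encoding CD20, Cd72, a B cell coreceptor, and Pax5 had higher values in every high than in any low lymphoma, with differences of 1.65, 2.25 and 0.28. Il7r, the receptor for the growth factor of precursor B cells, had lower ones, with -3.03. Of 15 tested precursor B cell genes it was the only 1 without overlap, beside 3.24% of all genes. That list held 4 higher and 11 lower genes, from -3.03 to 2.95. Its median was -0.492, and 0.114 without double-transgenic replicate 2. Myc differed by 0.14 and Zfp36, the gene of the second transgene, by 0.02, with overlapping groups.

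The genotypes, the contrast the study was designed for, were compared in the same way. Of 10172 genes tested between double-transgenic and Eμ-Myc lymphomas, 0 were called by limma at an adjusted p under 0.05, a share of 0%, and 577 had an unadjusted p under 0.05. The differences, double-transgenic minus Eμ-Myc, were -0.11 for Ifit3, 0.06 for Irf7, 0.24 for Usp18 and 1.05 for Rtp4. Ifit1, which did not pass the filter, differed by -0.60, with a mean of 2.92 in double-transgenic and 3.52 in Eμ-Myc lymphomas. The list medians were 0.083 for antiviral effectors, -0.172 for the GTPases, -0.276 for chemokines, -0.032 for receptors and kinases, -0.031 for regulatory factors, -0.084 for sensors, 0.007 for class I and -0.725 for class II genes. Within each genotype the high lymphomas exceeded the low ones in some of these lists and not in others. Median differences in Eμ-Myc (1 high, 2 low) were 0.87 for antiviral effectors, 3.38 for chemokines and 1.77 for the GTPases. In double-transgenic lymphomas (2 high, 1 low) they were 0.36, 2.51 and 0.54. Sensors had 0.65 in Eμ-Myc and 0.22 in double-transgenic lymphomas, and class I genes 0.26 and 0.11. Receptors and kinases were lower in both, at -0.18 and -0.95, and regulatory factors had -0.41 and 0.63. Xist, expressed from the inactive X chromosome of females, was high in 1 of the 3 high and 2 of the 3 low lymphomas, so that both groups held both sexes by this measure.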

How the data were processed

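The authors deposited 1 table of linear intensity values for 45037 probe sets on 9 arrays, made with GCRMA per the submitters' processing notes (version not given in the sources used here); GCRMA corrects background by probe sequence, so weak probe sets have low and poorly determined values. Scanner files and batches were not analysed here. Values were taken to log2. Names came from the platform annotation: 34945 probe sets had 1 gene, 932 several and 9160 none, and probe sets with several or none were left out. Each of 18193 genes took the probe set of highest mean, and genes over a log2 value of 4 (an intensity of 16) in at least 4 arrays were tested. The 9 arrays were fitted in 3 score groups by limma's lmFit and eBayes (limma 3.58.1, R 4.3.3, 6 residual degrees of freedom, two-sided), with the high minus low contrast and Benjamini-Hochberg adjustment at 0.05. The method was tested on simulated data, where 14 of 9968 unchanged genes were called.

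The members and lists were chosen with earlier results of these data known. The groups were made from the same arrays, so p-values describe association with the score, and genes of the interferon lists are given without one for the main comparison. Named genes were the score genes, Zfp36 and Myc, the 12 non-overlapping genes per direction with the smallest p, the ends of each list, all ligand, receptor and regulatory factor genes, and promoters as described; of the list ends, those that bear on the score are printed, and a few further members were chosen after their values were seen. Alternatives were the filter, the probe set rule, the normalisation, the variance model, covariates, the score as a continuous measure and each array left out; the exchange of the nearly tied lymphomas and the interaction with genotype were added after seeing the data. Correlations between arrays of log2 values across probe sets ran from 0.959 to 0.990.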

Additional observations from a re-analysis of the deposited data

Results flagged for a closer look

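In all, 68 combinations of a named gene and a genotype were examined for a lymphoma standing far from the others of its genotype. Of these, 4 met the criterion, where about 1 in 20, or 3.4, would be expected by chance for genes chosen without these values. Ifit1 is a score gene, and Cxcl10, Il10ra and Ripor2 were named because their groups did not overlap, so that rate is no benchmark for them. Eμ-Myc replicate 4 was also the only Eμ-Myc lymphoma in the high group. For Ifit1, Eμ-Myc replicate 4 stood at 8.11 while the remaining Eμ-Myc lymphomas lay between 1.89 and 2.18. For Cxcl10 the same lymphoma stood at 10.58 and the rest between 6.75 and 7.33. For Il10ra it stood at 6.25 and the rest between 8.59 and 8.72. For Ripor2, double-transgenic replicate 2 stood at 12.39 while the remaining double-transgenic lymphomas lay between 11.30 and 11.46.

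The difference between high and low lymphomas was also compared between the genotypes, where the Eμ-Myc high and the double-transgenic low lymphomas are 1 array each, so that a difference between genotypes has no replicate check there and its limma p is not given. The gene with the smallest p was Ikzf2, the lymphocyte transcription factor Helios, whose high minus low difference was 2.14 in Eμ-Myc and -6.72 in double-transgenic lymphomas, an interaction of -8.86. It read 11.20 in double-transgenic replicate 2 and 6.62 in Eμ-Myc replicate 4, each the sole array of its genotype in its score group, and 4.44 to 4.49 in the other 7.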

How the results depend on the processing

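The number of genes called between high and low lymphomas, 0, was 0 in 13 alternatives without an array left out, among them genotype as a covariate and the exchange of double-transgenic replicate 3 for 2. It was 1 with the score as a continuous measure (Cxcl9, adjusted p = 0.0392). With single arrays left out it was 0 to 1: Ccnd1 without Eμ-Myc replicate 3 (adjusted p = 0.047) and Il10ra without double-transgenic replicate 5 (adjusted p = 0.0242). Genes at an unadjusted p under 0.05 numbered 831 with no filter, over 18188 genes, and 374 to 860 with single arrays left out, 823 without Eμ-Myc replicate 1 and 860 without Eμ-Myc replicate 3. Replicate numbers did not pair the samples (correlations of same-numbered deviations -0.089 to 0.196); the replicate block gave 0 calls between high and low, with 349 genes at an unadjusted p under 0.05, 0 calls between genotypes, and a genotype difference of the score of -0.07. The genotype contrast called 0 to 8 genes with single arrays left out, 8 without Eμ-Myc replicate 3 and 1 without Eμ-Myc replicate 4, and the score's genotype difference, 0.13, ran from -0.64 to 1.32. The median of the feedback inhibitors was -0.04 with the mean of probe sets and -0.05 to 0.06 with single arrays left out. Ranges with single arrays left out for other interferon lists were 0.45 to 0.63 for antiviral effectors, 0.65 to 1.21 for the GTPases, 1.89 to 2.91 for chemokines, 0.10 to 0.31 for sensors, 0.02 to 0.17 for class I, -0.14 to 0.19 for regulatory factors and -0.87 to -0.38 for receptors and kinases. For lists outside interferon signalling they were 0.18 to 0.30 for suppressors of endogenous nucleic acid, 1.196 to 1.791 for T and natural killer cells, 0.01 to 0.69 for macrophages, -4.26 to -1.55 for granulocytes and -0.07 to 0.16 for the B lineage. The 24 genes named by smallest p kept their direction in 549 of 549 refits. They were chosen for groups that did not overlap in the same arrays, so this was largely fixed by the choice. Leaving out single score genes kept the same 3 high lymphomas and 2 to 3 of the low ones. With 3 lymphomas a group, differences of 1 log2 unit were often missed on simulated data.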
